A study of Mus musculus with 8 samples.

Results

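Ccl2, Ccl7, Ccl11, Cxcl1, Cxcl2, Cxcl5, Cxcl10, Cxcl12, Cxcl14 and Cxcl16 are 10 chemokine ligand genes that were chosen by name, as chemokines that hepatic stellate cells are known to make, and followed across primary mouse hepatic stellate cells in 4 states. They were 10 of 22180 genes with a named transcript level. Each had a single probe set that the array annotation gave to 1 gene. Transcript levels were measured on 8 Affymetrix arrays, 2 for each state, all from BALB/c mice. Cultured cells had been kept on plastic for 10 days. Carbon tetrachloride (CCl4), a liver toxicant, had been given to mice for 4 weeks or for 2 weeks to make their livers fibrotic, and the activated cells of both times were not seeded. Quiescent cells came from healthy livers at 0 hours and were not seeded either. The protocol field of every sample mentions 2.5 mM valproic acid for seeded cells. No title or treatment label mentions the drug, so it is unknown whether the culture contained it. Cells of the 3 other groups were never seeded, so culture and time since isolation cannot be told apart. Whether both arrays of a group stem from different animals or dishes is not in the labels. P-values thus reflect the spread between arrays, which may be only technical.

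Chemokines are small secreted proteins that bind G protein-coupled receptors on leukocytes and draw those cells along a gradient. In the liver, stellate cells, macrophages, endothelial cells and hepatocytes can all make them, and injury is known to raise several through NF-kappaB and interferon signalling. The CC group described here acts mainly on monocytes and eosinophils. CXC chemokines with an ELR motif act on neutrophils through Cxcr2, those without it act mostly on lymphocytes, and Cxcl12 and Cxcl14 are made in many resting tissues.

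Ccl2, Ccl7 and Ccl11 follow one another on chromosome 11 with 0 other protein-coding genes between them. Cxcl1 and Cxcl2 are likewise neighbours on chromosome 5, which also carries Cxcl5 and Cxcl10. Cxcl16 lies on chromosome 11, Cxcl12 on chromosome 6 and Cxcl14 on chromosome 13. RefSeq promoter sequences (assembly GRCm38.p6) matched 5 of the 10 genes, namely Cxcl1, Cxcl2, Cxcl10, Cxcl12 and Cxcl14. The 250 bases before the start are printed for the 3 whose windows hold the NF-kappaB consensus. They were picked for this consensus after values were seen, so no link with the changes in culture can be read from them. Capitals mark that consensus on either strand and, in Cxcl10, also the core of the interferon-stimulated response element, a paired GAAA. The windows are chr5:90890995-90891244 (plus strand) for Cxcl1, chr5:90903649-90903898 (plus strand) for Cxcl2 and chr5:92348890-92349139 (minus strand) for Cxcl10.
Cxcl1: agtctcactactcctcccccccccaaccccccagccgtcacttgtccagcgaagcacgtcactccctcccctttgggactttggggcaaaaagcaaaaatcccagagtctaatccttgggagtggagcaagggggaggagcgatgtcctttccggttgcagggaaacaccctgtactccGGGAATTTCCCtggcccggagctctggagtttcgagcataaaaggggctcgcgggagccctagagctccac
Cxcl2: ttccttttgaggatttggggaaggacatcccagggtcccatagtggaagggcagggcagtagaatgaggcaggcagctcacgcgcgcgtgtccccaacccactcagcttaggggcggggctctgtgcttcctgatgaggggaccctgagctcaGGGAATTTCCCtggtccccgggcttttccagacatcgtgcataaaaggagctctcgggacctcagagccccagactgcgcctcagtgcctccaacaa
Cxcl10: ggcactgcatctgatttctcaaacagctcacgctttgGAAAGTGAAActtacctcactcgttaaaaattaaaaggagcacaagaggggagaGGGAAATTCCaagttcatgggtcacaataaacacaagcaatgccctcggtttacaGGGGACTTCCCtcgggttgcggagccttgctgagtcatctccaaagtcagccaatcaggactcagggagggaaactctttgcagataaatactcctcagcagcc
Cxcl1 and Cxcl2 share the same capital letters, GGGAATTTCC, which begin 71 and 97 bases before the start. The reverse strand matches again 1 base further on, so both matches overlap. Cxcl10 holds GGGAAATTCC at 159 bases and GGGGACTTCC at 104 bases before the start, the second overlapped by a further match at 103. It also holds the interferon-stimulated core GAAAGTGAAA at 213 bases and an AP-1 motif (TGANTCA) at 74 bases. Searched on both strands, 7.25% of the 32851 windows in the RefSeq table hold the NF-kappaB consensus, 2.98% the interferon-stimulated core and 6.75% TGANTCA. Cxcl14 holds the same kind of core, GAAACAGAAA, at 172 bases and a STAT motif (TTCNNNGAA, in 7.02% of windows) at 191 bases. Cxcl1 and Cxcl2 also hold the TATA-like letters ATAAAA, at 34 and 57 bases, as do 17.0% of windows. The Cxcl12 window held none of the 7 motifs searched, the last of them being the TATA box (TATAAA, in 12.4% of windows) and a TEAD motif (CATTCC, in 12.6%). A match describes letters only and shows no binding.

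The authors deposited log2 values made by robust multi-array averaging (RMA), so a difference of 1 is a factor of 2.0 within a gene, and levels of different genes were not compared. As a guide to background, 1394 genes with an olfactory or vomeronasal receptor symbol stood at 3.22 in the median and at 4.75 at the 95th percentile. Of 24 measured stellate cell markers, 23 lay above 4.75 on all 6 unseeded arrays, the exception being Gfap. That check left out culture, where Colec10 (4.37 and 4.37) and Colec11 (4.63 and 4.10) lay below 4.75 on both arrays. Cygb, Vipr1, Ngfr and Gfap lay below it on 1 culture array each. The list holds markers of both resting and activated cells: against quiescent cells 7 were higher and 13 lower in culture, 10 higher and 8 lower after 4 weeks of CCl4, and 8 higher and 7 lower after 2 weeks. Over all alternatives the CCl4 counts ran from 4 to 10 and 3 to 8 after 4 weeks, and from 4 to 10 and 2 to 7 after 2 weeks. Of all genes, 12.9% were higher and 10.3% lower in culture, 4.04% and 4.67% after 4 weeks, and 2.34% and 2.43% after 2 weeks. Lrat, Acta2 and Des are given as examples. Lrat, which stores vitamin A as esters, read 7.21 and 5.74 in culture, 11.04 and 10.97 after 4 weeks of CCl4, 10.95 and 11.11 after 2 weeks, and 10.95 and 11.29 in quiescent cells. Acta2, the smooth muscle actin of activated stellate cells, read 12.71 and 12.69 in culture, 11.70 and 12.18 after 4 weeks, 11.95 and 11.92 after 2 weeks, and 6.78 and 7.24 in quiescent cells. Des, an intermediate filament of stellate cells, lay between 9.67 and 10.08 on all 8 arrays. Markers of other liver cells were also present. In such bulk samples, fewer cells of a type and less RNA per cell cannot be told apart.

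In culture, 7 of the 10 chemokines fell against quiescent cells, 1 rose and 2 did not pass the test (limma, adjusted p under 0.05 over all genes). Of all 22180 genes, 10.3% were lower and 12.9% were higher in this comparison. The median change was -1.49 for the 10 genes and 0.01 for all genes, on the log2 scale. After 4 weeks of CCl4, 3 rose and 1 fell, against 4.04% of all genes higher and 4.67% lower, with a median of -0.19 for the 10. After 2 weeks, 3 rose and 0 fell, against 2.34% higher and 2.43% lower, with a median of 0.29, and 4 had an unadjusted p under 0.05. Without 4-week array 2 the 3 rises after 4 weeks became 1, and without 2-week array 1 the 3 after 2 weeks became 1. The 1 fall after 4 weeks was lost when any array was left out. Set against the mean of both CCl4 times, culture was lower for 8 and higher for 0, where 8.72% of all genes were lower and 12.6% higher. The plots of levels by array and of changes show each of these.

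**Figure D1:**
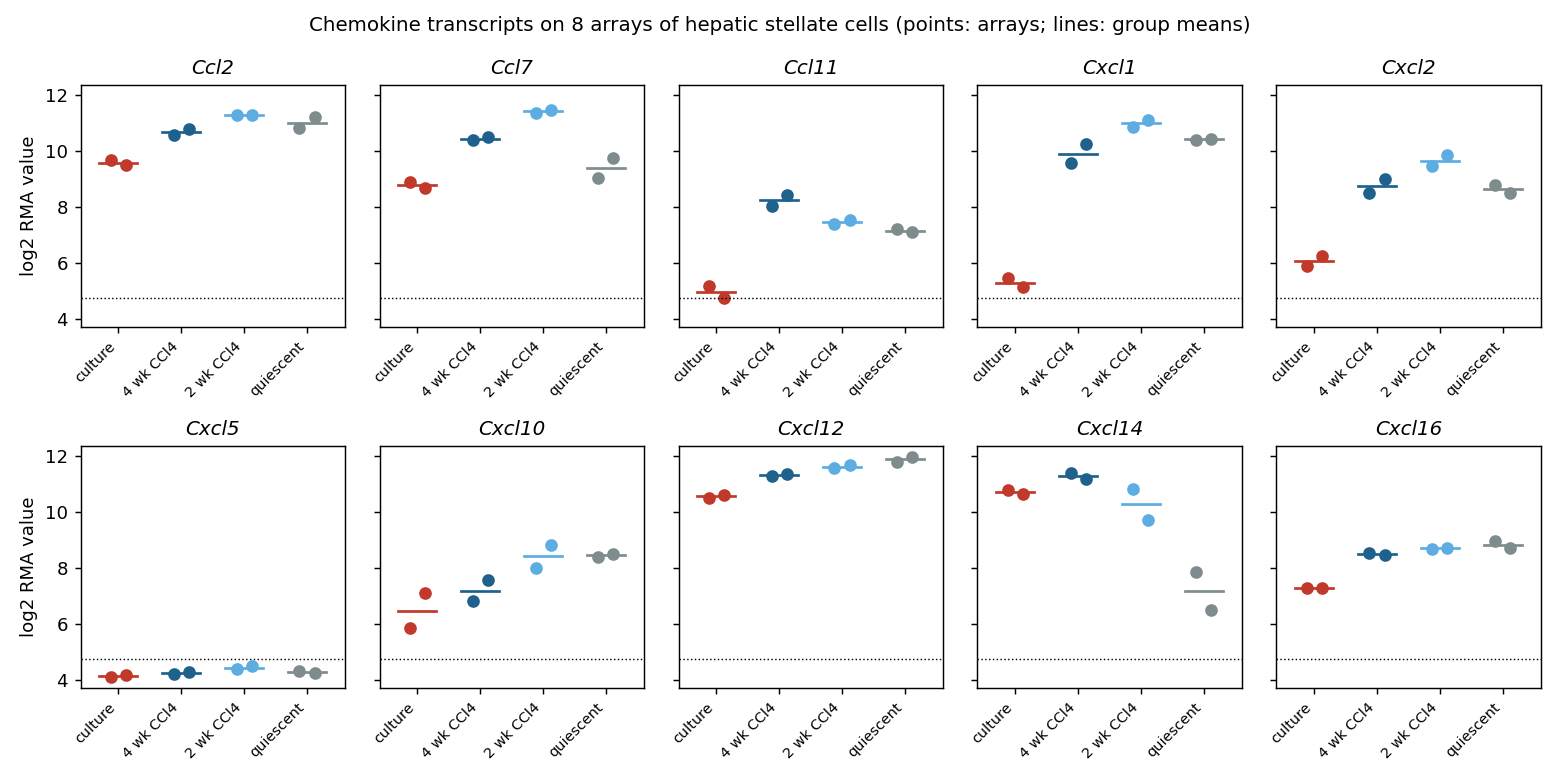
Log2 RMA value (vertical axis) of each of the 10 chemokine genes on each array, by group; points are arrays, lines are group means and the dotted line is the 95th percentile of receptor genes at 4.75. Cxcl1 stands at 5.47 and 5.15 in culture and above 9.5 on the 6 other arrays, while Cxcl14 is lowest in quiescent cells.

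Ccl2, the main attractant of Ccr2-bearing monocytes, was lower in culture than in any other state. Its log2 values were 9.68 and 9.50 in culture, 10.57 and 10.78 after 4 weeks of CCl4, 11.29 and 11.28 after 2 weeks, and 10.82 and 11.22 in quiescent cells. The 4 groups did not overlap, in the order 2 weeks, quiescent, 4 weeks and culture from high to low. The fall in culture was -1.43 ± 0.17 (SE; 2.70-fold lower, limma adjusted p = 0.000376) against quiescent cells. The changes of -0.35 ± 0.17 after 4 weeks (limma adjusted p = 0.308) and 0.27 ± 0.17 after 2 weeks (limma adjusted p = 0.51) did not pass.

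Ccl7, a related attractant of monocytes, rose at both CCl4 times. It read 8.90 and 8.67 in culture, 10.40 and 10.49 after 4 weeks of CCl4, 11.35 and 11.49 after 2 weeks, and 9.03 and 9.74 in quiescent cells. The groups did not overlap, with both CCl4 groups above quiescent cells and culture below them. The rise after 2 weeks was 2.03 ± 0.22 (4.09-fold, limma adjusted p = 0.00192). After 4 weeks it was 1.06 ± 0.22 (2.08-fold, limma adjusted p = 0.021). That 4-week call was lost without quiescent array 1 (limma adjusted p = 0.059), without 4-week array 1 (0.111) and without 4-week array 2 (0.129). In culture the change of -0.60 ± 0.22 did not pass (limma adjusted p = 0.0888), and without quiescent array 1 it did, at -0.96 (0.00646).

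Ccl11, or eotaxin, which draws Ccr3-bearing eosinophils, fell in culture and rose after 4 weeks of CCl4. Its values were 5.19 and 4.77 in culture, 8.04 and 8.45 after 4 weeks, 7.40 and 7.55 after 2 weeks, and 7.22 and 7.10 in quiescent cells. Both culture arrays were below all others and near the background guide of 4.75, and both 4-week arrays were above all others. The fall in culture was -2.18 ± 0.19 (4.53-fold lower, limma adjusted p = 6.95e-05). The 4-week rise was 1.08 ± 0.19 (2.12-fold, limma adjusted p = 0.0103) and was lost without 4-week array 2 (0.0886). The 2-week change of 0.31 ± 0.19 did not pass (limma adjusted p = 0.498).

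Cxcl1, a neutrophil attractant, had the largest fall of the 10 in culture. It read 5.47 and 5.15 in culture, 9.56 and 10.27 after 4 weeks of CCl4, 10.87 and 11.12 after 2 weeks, and 10.42 and 10.45 in quiescent cells. Culture lay more than 4 log2 units below every other array, and the 3 unseeded groups did not overlap one another. Against quiescent cells the fall was -5.12 ± 0.23 (34.7-fold lower, limma adjusted p = 1.81e-06). The changes of -0.52 ± 0.23 after 4 weeks (limma adjusted p = 0.252) and 0.56 ± 0.23 after 2 weeks (limma adjusted p = 0.258) had opposite signs and did not pass.

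Cxcl2, its chromosomal neighbour and also a neutrophil attractant, fell in culture as well. Its values were 5.89 and 6.25 in culture, 8.51 and 9.02 after 4 weeks, 9.46 and 9.85 after 2 weeks, and 8.80 and 8.52 in quiescent cells. Culture was lowest and 2 weeks highest, while the 4-week and quiescent arrays overlapped. The fall in culture was -2.59 ± 0.23 (6.02-fold lower, limma adjusted p = 6.51e-05). At 2 weeks it rose by 0.996 ± 0.23 (limma adjusted p = 0.043). That call was lost when any 1 of the 8 arrays was left out, with adjusted p between 0.0519 and 0.193. The 4-week change was 0.11 ± 0.23 (limma adjusted p = 0.875).

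Cxcl5, another ligand of Cxcr2, gave no signal above the guide. It read 4.12 and 4.17 in culture, 4.22 and 4.27 after 4 weeks, 4.39 and 4.49 after 2 weeks, and 4.33 and 4.26 in quiescent cells. All 8 values were below 4.75 and spanned 0.37, and limma called it in none of the comparisons, with adjusted p from 0.28 to 0.915. A level this low is only a bound.

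Cxcl10, an interferon-induced attractant of Cxcr3-bearing T cells, fell in culture. Its values were 5.85 and 7.11 in culture, 6.82 and 7.56 after 4 weeks, 8.01 and 8.82 after 2 weeks, and 8.41 and 8.49 in quiescent cells. Culture and 4-week arrays overlapped, as did 2-week and quiescent arrays, and the first pair lay below the second. The spread within groups was wider than for the other called genes except Cxcl14. The fall in culture was -1.97 ± 0.42 (3.92-fold lower, limma adjusted p = 0.00842). The 4-week change of -1.26 ± 0.42 did not pass (limma adjusted p = 0.113), though it did in a fit of only the groups compared (0.0466). The 2-week change was -0.04 ± 0.42 (limma adjusted p = 0.983).

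Cxcl16, made as a membrane-anchored ligand of Cxcr6 on T and NKT cells and shed by Adam10, also fell in culture. It read 7.28 and 7.29 in culture, 8.52 and 8.46 after 4 weeks, 8.68 and 8.72 after 2 weeks, and 8.97 and 8.70 in quiescent cells. Culture was below every other array, while the 2-week and quiescent arrays overlapped. The fall was -1.55 ± 0.14 (2.93-fold lower, limma adjusted p = 8.3e-05). The 4-week change of -0.35 ± 0.14 (limma adjusted p = 0.202) and the 2-week change of -0.14 ± 0.14 (limma adjusted p = 0.733) did not pass.

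Cxcl12, which holds Cxcr4-bearing cells in tissues, was highest in quiescent cells. Its values were 10.52 and 10.59 in culture, 11.30 and 11.35 after 4 weeks of CCl4, 11.55 and 11.67 after 2 weeks, and 11.78 and 11.97 in quiescent cells. The 4 groups did not overlap and stood in the order quiescent, 2 weeks, 4 weeks and culture from high to low. The fall in culture was -1.32 ± 0.14 (2.50-fold lower, limma adjusted p = 0.000179). The 4-week fall was -0.56 ± 0.14 (1.47-fold lower, limma adjusted p = 0.0409), and that call was lost when any 1 of the 8 arrays was left out, with adjusted p from 0.0564 to 0.208. The 2-week change of -0.26 ± 0.14 did not pass (limma adjusted p = 0.396).

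Cxcl14, a CXC chemokine of epithelia and fibroblasts, was the only one of the 10 to rise in culture and the only one called higher in all 3 comparisons with quiescent cells. It read 10.78 and 10.64 in culture, 11.37 and 11.19 after 4 weeks, 10.83 and 9.72 after 2 weeks, and 7.86 and 6.51 in quiescent cells. Both quiescent arrays lay below the 6 others, and the culture and 2-week arrays overlapped. The rise was 3.52 ± 0.44 in culture (11.5-fold, limma adjusted p = 0.000502), 4.10 ± 0.44 after 4 weeks (17.1-fold, limma adjusted p = 0.00094) and 3.09 ± 0.44 after 2 weeks (8.53-fold, limma adjusted p = 0.00642). The 2-week call was lost without 2-week array 1 (0.0611).

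**Figure D2:**
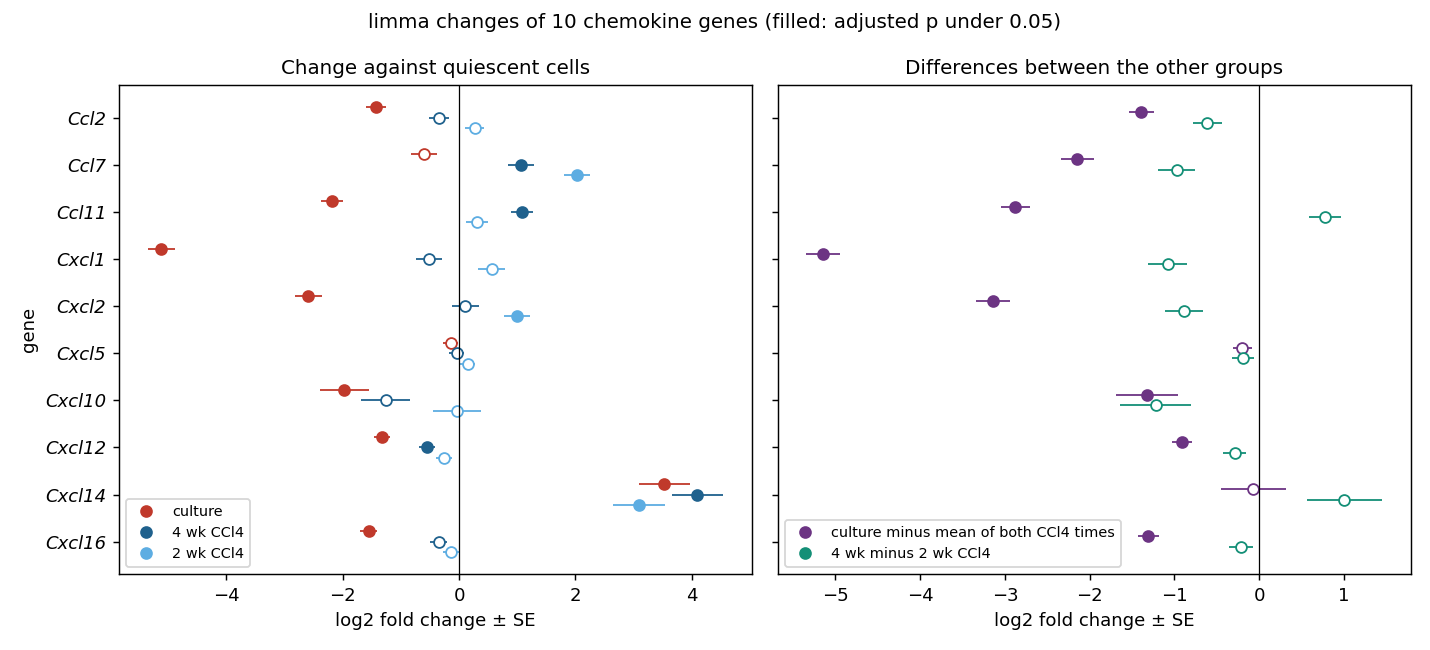
Log2 fold change ± SE (horizontal axis) of each gene from limma, against quiescent cells on the left and between the other groups on the right; filled points have an adjusted p under 0.05. In culture 7 genes lie left of 0 and are filled, and Cxcl14 alone is filled to the right.

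The difference between culture and the mean of both CCl4 times asks whether the in vitro state matches the in vivo one for these genes. It was lower in culture for 8 of 10. The differences were -5.14 ± 0.20 for Cxcl1 (35.3-fold lower, limma adjusted p = 7.72e-07), -3.14 ± 0.20 for Cxcl2 (8.82-fold lower, 9.72e-06) and -2.88 ± 0.17 for Ccl11 (7.35-fold lower, 6.97e-06). For Ccl7 the difference was -2.15 ± 0.19 (4.43-fold lower, limma adjusted p = 8.23e-05). It was smaller for Ccl2 (-1.39 ± 0.15, 0.000219), Cxcl16 (-1.31 ± 0.12, 0.00011) and Cxcl12 (-0.91 ± 0.12, 0.000741). Cxcl10 gave -1.32 ± 0.36 (limma adjusted p = 0.0299) although its arrays overlapped, and the call was lost without culture array 1 (0.271), 2-week array 2 (0.0896) or 4-week array 2 (0.0908). For Cxcl14 the difference was -0.07 ± 0.38 (limma adjusted p = 0.939), and a p that misses the threshold does not show that the levels were alike.

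Between 4 and 2 weeks of CCl4, limma called 0 of the 10 genes in either direction, while 7 had an unadjusted p under 0.05. Of all genes, 0.0271% were called higher and 0.0586% lower. The 4-week arrays lay wholly above the 2-week arrays for Ccl11 and Cxcl14 and wholly below for the 8 others, which 18.8% and 20.2% of all genes also did. The changes ran from -1.22 ± 0.42 for Cxcl10 (limma adjusted p = 0.456) to 1.004 ± 0.44 for Cxcl14 (0.612), with -1.08 ± 0.23 for Cxcl1 (0.173) and -0.97 ± 0.22 for Ccl7 (0.196). Without quiescent array 1 or 2 the Ccl7 difference passed (limma adjusted p = 0.0419). Of 22 macrophage markers, 21 had an unadjusted p under 0.05 between these times. Their median change was -1.17, against -0.45 for the 10 chemokines. By adjusted p, 0 of these markers were higher after 4 weeks than after 2 weeks and 5 were lower. That count was 0 without either culture array, either 2-week array or 4-week array 2, 1 without 4-week array 1 and 11 without either quiescent array. Their part in the chemokine values was not tested.

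**Figure D3:**
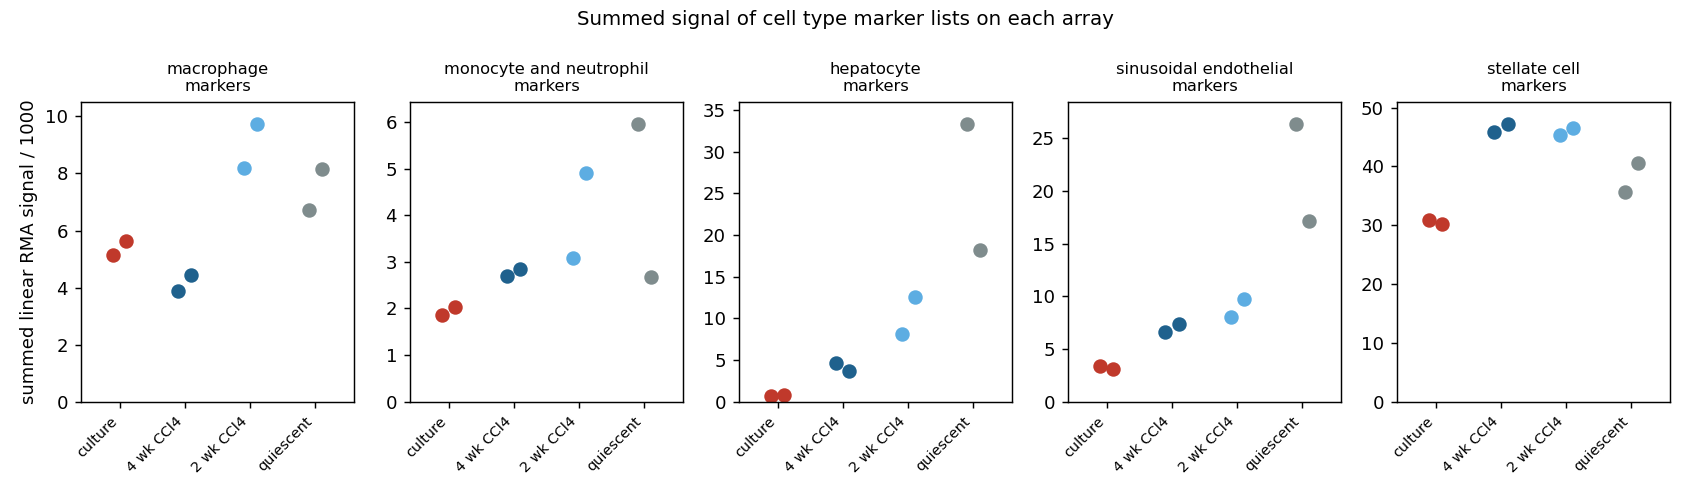
Summed linear RMA signal divided by 1000 (vertical axis) of each marker list on each array, by group. Hepatocyte signal is 0.722 and 0.784 in culture and 33.3 and 18.2 in quiescent cells.

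Markers of other liver cells also differed between the states. Of all genes, 10.3% were lower and 12.9% higher in culture than in quiescent cells. The shares were 4.67% lower and 4.04% higher after 4 weeks of CCl4, and 2.43% lower and 2.34% higher after 2 weeks. In culture against quiescent cells, 17 of 22 measured hepatocyte markers, 23 of 24 sinusoidal endothelial markers and 16 of 22 macrophage markers fell, and 2 macrophage markers rose. After 4 weeks of CCl4, 16 hepatocyte markers (11 to 17 over all alternatives), 20 endothelial markers (13 to 22) and 13 macrophage markers (8 to 13) fell. After 2 weeks, 8 hepatocyte markers (0 to 13), 14 endothelial markers (2 to 19) and 2 macrophage markers (0 to 4) fell, while 4 macrophage markers (1 to 5) rose. Part of the portal fibroblast and mesothelial marker list was also higher after CCl4, as were Ccl7 and Cxcl14 at both times and Ccl11 at 4 weeks. Cxcl14 rose in culture too. Of 13 measured genes of this list, 4 rose (3 to 4) and 1 fell after 4 weeks, and 5 rose (3 to 5) and 0 fell after 2 weeks, against 1 higher and 6 lower in culture. Their summed linear signal, divided by 1000, was 1.68 and 1.47 in culture, 5.15 and 4.78 after 4 weeks, 5.04 and 5.77 after 2 weeks, and 2.15 and 2.66 in quiescent cells. Most of this sum came from 1 gene, Dpt on the unseeded arrays (10.36 and 10.82 in quiescent cells) and Fbln2 in culture (10.10 and 10.05). The log2 median of the list was 4.88 and 4.80 in culture, 6.28 and 6.22 after 4 weeks, 6.83 and 6.70 after 2 weeks, and 5.22 and 5.70 in quiescent cells. The summed linear signal of the hepatocyte list, divided by 1000, was 0.722 and 0.784 in culture, 4.67 and 3.73 after 4 weeks, 8.16 and 12.6 after 2 weeks, and 33.3 and 18.2 in quiescent cells. The macrophage list summed to 5.16 and 5.64 in culture, 3.90 and 4.43 after 4 weeks, 8.19 and 9.73 after 2 weeks, and 6.71 and 8.16 in quiescent cells. On the log2 scale its median over 22 genes was 6.16 and 6.69 in culture, 6.42 and 6.52 after 4 weeks, 7.56 and 7.85 after 2 weeks, and 7.64 and 8.15 in quiescent cells. Culture and 4-week arrays overlapped in this median. The monocyte and neutrophil list summed to 1.86 and 2.03 in culture, 2.71 and 2.85 after 4 weeks, 3.08 and 4.90 after 2 weeks, and 5.96 and 2.68 in quiescent cells. Most of the culture sum came from Plac8, which lay between 10.30 and 10.63 on all 8 arrays. The log2 median of this list was 4.65 and 4.72 in culture, 4.80 and 5.05 after 4 weeks, 5.24 and 5.55 after 2 weeks, and 5.45 and 4.85 in quiescent cells. In culture Alb, the main hepatocyte secretory product, read 4.42 and 4.17, below the guide of 4.75, against 11.90 and 11.63 in quiescent cells. Clec4g, a sinusoidal endothelial lectin, read 4.33 and 4.33 in culture, against 12.17 and 11.28 in quiescent cells. The part of these cells in the chemokine changes was not tested, nor was which cells of the samples carried the transcripts.

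Chemokine receptors were measured as well. Their median level in quiescent cells was 4.69 and 5.04, near the guide of 4.75, so many of them had little room to fall. In culture against quiescent cells, 10.3% of all genes were lower and 12.9% higher. In culture 5 of 22 measured chemokine receptor genes fell and 0 rose, with a list median of -0.16, and without quiescent array 1 the falls numbered 8. The 3 with the smallest p were Ackr1, which binds inflammatory chemokines on venular endothelium (-3.13 ± 0.15, limma adjusted p = 2.37e-06), Ccrl2, a non-signalling receptor of chemerin (-3.99 ± 0.21, 3.81e-06), and Ccr3 (-1.75 ± 0.26, 0.00117). Ccr3 read 3.19 and 3.69 in culture, below the guide of 4.75, and only 4.83 and 5.56 in quiescent cells, so the size of its fall is not exact. Ccr2, which binds Ccl2 and Ccl7, read 5.23 and 4.85 in culture, 6.11 and 6.40 after 4 weeks of CCl4, 6.60 and 6.96 after 2 weeks, and 5.58 and 5.35 in quiescent cells. It was higher on all 4 CCl4 arrays than on the others. The rise after 2 weeks was 1.32 ± 0.20 (limma adjusted p = 0.00771, and 0.0551 without 2-week array 2). Cxcr4, the receptor of Cxcl12, read 6.22 and 6.27 in culture, 6.99 and 7.52 after 4 weeks, 7.51 and 7.63 after 2 weeks, and 6.65 and 6.38 in quiescent cells. It rose after 2 weeks by 1.05 ± 0.19 (limma adjusted p = 0.0174), a call lost without quiescent array 2 (0.0511), 2-week array 1 (0.0994) or 2-week array 2 (0.0953). Cxcr2 lay between 5.35 and 5.69 and Cxcr3 between 4.69 and 5.198 on the 8 arrays, and neither was called in any comparison.

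Regulators of NF-kappaB, a transcription factor of inflammatory genes, were followed next, first in culture against quiescent cells. In that comparison 10.3% of all genes were lower and 12.9% higher. Of 27 measured NF-kappaB subunits and regulators, 10 fell and 1 rose, with a median of -0.20, and without culture array 1 the falls numbered 6. The 3 with the smallest p belong to the IkappaB family of NF-kappaB inhibitors and cofactors. Nfkbia fell by 2.64 ± 0.18 (limma adjusted p = 1.58e-05), Nfkbie by 2.55 ± 0.18 and Nfkbiz, a nuclear cofactor, by 2.69 ± 0.23 (5.39e-05). Map3k7, a kinase upstream of NF-kappaB, rose by 0.55 ± 0.14 (limma adjusted p = 0.0235), a call lost without quiescent array 1 (0.0708), quiescent array 2 (0.0729) or culture array 1 (0.144). Nfkbia read 8.35 and 8.79 in culture, 10.67 and 10.86 after 4 weeks, 11.20 and 11.33 after 2 weeks, and 11.32 and 11.09 in quiescent cells. After 2 weeks of CCl4, 1 of the 27 rose and 0 fell, against 2.34% of all genes higher and 2.43% lower. The rise was of Ikbke (0.71 ± 0.16, limma adjusted p = 0.0419), a call lost in a fit of only the groups compared. At 4 weeks the shares of all genes were 4.04% higher and 4.67% lower. After 4 weeks limma called 0 of the 27 genes, while 4 had an unadjusted p under 0.05, and without quiescent array 2 it called 3 lower.

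Cytokines known to induce chemokines, and their receptors, gave 13 falls and 2 rises of 31 in culture, with a median of -0.59. The shares of all genes were 10.3% lower and 12.9% higher. Il1b, a potent inducer of Cxcl1, read 4.07 and 4.17 in culture, 7.21 and 8.47 after 4 weeks, 8.80 and 8.84 after 2 weeks, and 8.31 and 8.40 in quiescent cells. Both culture arrays were below the background guide of 4.75, and the 6 others were above 7, with a fall of -4.24 ± 0.33 (limma adjusted p = 3.22e-05). Il1a fell by 5.12 ± 0.37 (limma adjusted p = 2.31e-05), with culture values of 4.86 and 4.15. For both genes the culture arrays lay at or near background, so the sizes of these falls are not exact. Also in culture, Il13ra1, a receptor chain of interleukin 13, fell by 3.10 ± 0.16 (3.38e-06). Il6, against this, rose in culture by 3.46 ± 0.33 (limma adjusted p = 0.000112), after 4 weeks by 3.02 ± 0.33 (0.00108) and after 2 weeks by 3.61 ± 0.33 (0.000728). Its quiescent values of 5.33 and 4.55 were near background. Il1rap, the shared accessory chain of interleukin 1 receptors, rose by 1.17 ± 0.14 in culture (limma adjusted p = 0.000364) and by 0.98 ± 0.14 after 4 weeks (0.00346). With the mean of its probe sets these were 0.49 (limma adjusted p = 0.0244) and 0.37 (0.14), so the 4-week call was lost.

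**Figure D4:**
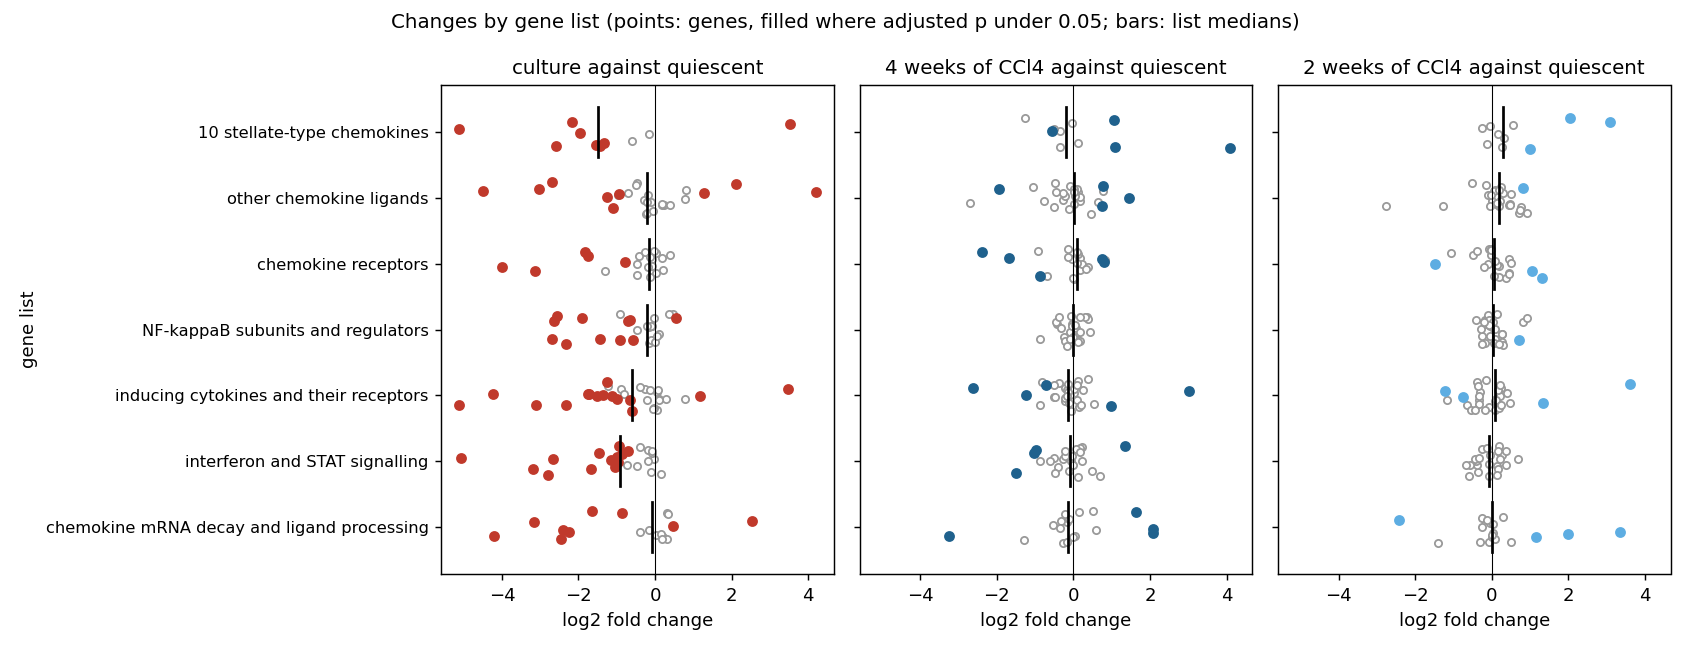
Log2 fold change (horizontal axis) of each measured gene, by list, in culture, after 4 weeks and after 2 weeks of CCl4 against quiescent cells; filled points have a limma adjusted p under 0.05 and bars are list medians. In culture the median of the 10 chemokines is -1.49, and those of the 6 other lists drawn, which leave out the cell type markers, run from -0.90 to -0.07. Many chemokine receptors and other chemokine ligands lay near background in quiescent cells and had little room to fall, so these medians are not on a like footing.

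Of 24 measured interferon and STAT signalling genes, 14 fell and 0 rose in culture, with a median of -0.90. Over all genes, 10.3% were lower and 12.9% higher. Socs3, a feedback inhibitor of STAT3, fell by 5.05 ± 0.17 (limma adjusted p = 3.31e-07), and Irf1, a transcription factor of the interferon response, by 3.18 ± 0.21 (1.5e-05). Irf1 also fell after 4 weeks of CCl4 (-1.49 ± 0.21, limma adjusted p = 0.00376) while Irf7 rose (1.36 ± 0.19, 0.00306). Among 18 genes of mRNA decay and ligand processing, 7 fell and 2 rose in culture, against the same shares of all genes. Zfp36, which destabilises AU-rich cytokine transcripts, fell by 2.40 ± 0.14 (limma adjusted p = 6.83e-06), and Zfp36l1 by 3.15 ± 0.17 (4.08e-06). Mmp12, which cleaves several CXC chemokines, rose by 2.54 ± 0.13 (limma adjusted p = 4.18e-06). Adam10, the sheddase of Cxcl16, rose by 0.46 ± 0.13 (limma adjusted p = 0.0302), a call lost in 6 of 8 fits that left out 1 array, with adjusted p from 0.0527 to 0.13. Dpp4, a peptidase that inactivates Cxcl10 and Cxcl12, fell after 4 weeks (-3.25 ± 0.39, limma adjusted p = 0.00166).

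The 26 other measured chemokine ligands gave 6 falls and 3 rises in culture, with a median of -0.20 against -1.49 for the 10. Shares over all genes were 10.3% lower and 12.9% higher. In quiescent cells the median level of these 26 was 5.29 and 5.38, near the guide of 4.75, against 8.89 and 8.61 for the 10. Genes near background have little room to fall, so both medians of change are not on a like footing. Ccl17, a ligand of Ccr4, rose by 4.20 ± 0.42 (limma adjusted p = 0.000137), and Ppbp, a platelet chemokine, by 2.13 ± 0.28 (0.000638). The quiescent values of Ccl17 (4.11 and 4.30) and Ppbp (4.52 and 4.70) were below the guide of 4.75, so the sizes of these rises are measured against background. Ccl12, a mouse monocyte attractant, rose by 1.29 ± 0.35 (limma adjusted p = 0.0284), a call lost without quiescent array 1 (0.119) or culture array 1 (0.138), and its quiescent values (3.58 and 3.93) were also below the guide. Cxcl9, an interferon-induced ligand of Cxcr3 like Cxcl10, fell by 3.04 ± 0.31 (limma adjusted p = 0.000143).

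After CCl4 the counts of these lists were read against 4.04% of all genes higher and 4.67% lower at 4 weeks, and 2.34% higher and 2.43% lower at 2 weeks. Leaving out 1 array or changing a setting moved many of them by more than 1.5 times, and ranges over all alternatives stand in brackets. Of 22 receptors, 2 rose (0 to 2 over all alternatives) and 3 fell (1 to 4) after 4 weeks, and 2 rose (0 to 3) and 1 fell (1 to 2) after 2 weeks. Ackr1 fell at both times, by 2.39 ± 0.15 after 4 weeks (limma adjusted p = 7.05e-05) and by 1.47 ± 0.15 after 2 weeks (0.00115). Of 31 inducing cytokines and receptors, 2 rose (1 to 4) and 3 fell (2 to 6) after 4 weeks, and 2 rose (1 to 3) and 2 fell (0 to 4) after 2 weeks. Tnf, which induces many chemokines, rose after 2 weeks by 1.34 ± 0.29 (limma adjusted p = 0.0351), a call lost without either quiescent array or either 2-week array, with adjusted p from 0.0675 to 0.185. Of 24 interferon and STAT genes, 1 rose (1 to 3) and 3 fell (1 to 7) after 4 weeks, and limma called 0 after 2 weeks, where 4 had an unadjusted p under 0.05. Of 18 genes of mRNA decay and ligand processing, 3 rose (3 to 5) and 1 fell (1 to 2) after 4 weeks, and 3 rose (3 to 3) and 1 fell (0 to 2) after 2 weeks. The rises at both times were of matrix metalloproteinases that can cleave chemokines. Mmp12 rose by 2.08 ± 0.13 after 4 weeks (limma adjusted p = 9.44e-05) and by 3.34 ± 0.13 after 2 weeks (1.38e-05), Mmp14 by 1.65 ± 0.14 (0.0003) and 1.16 ± 0.14 (0.00263), and Mmp2 by 2.07 ± 0.24 (0.0014) and 2.00 ± 0.24 (0.00304). The quiescent values of Mmp12, 4.87 and 4.79, were near background. Of 26 other chemokine ligands, 3 rose (0 to 3) and 1 fell (0 to 3) after 4 weeks, and 1 rose (0 to 4) and 0 fell (0 to 1) after 2 weeks.

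Likeness of pattern was measured as Pearson's r over the 8 arrays, which fall into 4 groups, among 5934 genes with a range of at least 1 log2 unit, and is given as a description. Cxcl1 was most like Il1b (r = 0.994) and Ccrl2 (0.989), and its nearest other chemokine of the set was Cxcl2 (0.976). Ccl2 was most like Cxcl1 (0.973) and Il1b (0.971), and Cxcl2 like Sirpa (0.986) and Auts2 (0.984). Ccl7 was most like the matrix genes Col5a1 (0.979) and Mfap2 (0.975), and Ccl11 like Mir23a (0.99) and Fzd1 (0.988). Cxcl10 was most like Pde4b (0.984) and Sox12 (0.962), Cxcl5, at background, like Cd83 (0.965), and Cxcl12 like Gstt1 (0.996). Cxcl16 was most like Ahsg (0.995), a gene of the hepatocyte marker list, and Socs3 (0.994). Cxcl14 was most like Rasl11b (0.985), and its nearest other chemokine of the set was Ccl7, with r of only 0.231.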

How the data were processed

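Total RNA was preamplified, labelled with biotin and hybridised to Affymetrix arrays, per the labels' protocols. The authors deposited log2 values with RMA, for which the submitters' processing notes name Affymetrix Expression Console without a version. RMA normalizes arrays jointly and would hide a change common to most genes. Array medians over 41345 probe sets ran from 4.63 to 4.72, and values were used as deposited. The annotation gave 1 symbol to 23521 probe sets, several to 1814 and none used here to 16010. Per gene, the single-symbol probe set with the highest mean was kept. Symbols were checked by gene ID in a RefSeq table (193 IDs had no row, 0 symbols changed). No source used here gives the array's genome build.

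All 8 arrays were fitted by group with limma 3.58.1 in R 4.3.3 (lmFit and eBayes, two-sided, 4 residual and 4.75 prior degrees of freedom), with Benjamini-Hochberg adjustment over 22180 genes and a threshold of 0.05. The script was tested on simulated data. The chemokines and the gene lists were chosen with earlier results of these data known. Beside the 10 chemokines, the text names up to 3 members of a list with the smallest p, members against their list, receptors of the 10, a few cell type markers and the most similar genes. Receptors and markers printed with levels were picked for what they are, after values were seen. Alternatives were median centring, only the groups compared, repeated quantile normalization, limma's trend and robust options, array weights, a filter on low values (mean of at least 5), the mean of a gene's probe sets, a replicate block and leaving out each array. With same-numbered arrays of different groups, deviations from group means correlated between -0.042 and 0.0737. These values gave no sign that the numbers pair the arrays, but they cannot show that such arrays were handled apart. The number of arrays limits the precision.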

Additional observations from a re-analysis of the deposited data

Results flagged for a closer look

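The change in culture differed from the mean change after CCl4 for 8 of the 10 chemokines, tested as a limma contrast in which the quiescent arrays cancel. The difference, culture minus the mean of both CCl4 times on the log2 scale, was -5.14 for Cxcl1, -3.14 for Cxcl2, -2.88 for Ccl11 and -2.15 for Ccl7. It was -1.39 for Ccl2, -1.32 for Cxcl10, -1.31 for Cxcl16 and -0.91 for Cxcl12. All 4 CCl4 arrays were above both culture arrays for these genes except Cxcl10, whose arrays overlapped.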

How the results depend on the processing

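No called change of the 10 chemokines turned its direction under any alternative run. Changes near 0 that were not called did for Cxcl10 after 2 weeks, Cxcl2 and Cxcl5 after 4 weeks and Cxcl14 between culture and CCl4. The counts of culture against quiescent cells stayed at 1 rise and 7 to 8 falls, and those of culture against both CCl4 times at 0 rises and 7 to 8 falls, whichever array was left out. After 4 weeks of CCl4, 1 to 3 of the 10 were higher (3 with all arrays) and 0 were lower in each fit that left out 1 array, against 1 with all. Median centring also gave 0 lower. The replicate block gave 2 lower, Cxcl12 and Cxcl10 (limma adjusted p = 0.0251). After 2 weeks, 1 to 2 were higher, against 3 with all arrays. Between 4 and 2 weeks, 0 to 1 was lower, against 0. Counts over all genes moved by more than 1.5 times: 317 to 1026 higher and 335 to 1201 lower after 4 weeks (896 and 1036 with all arrays), 190 to 633 higher and 70 to 797 lower after 2 weeks (520 and 538), and 0 to 15 higher and 0 to 70 lower between them (6 and 13). Those of culture against both CCl4 times (2789 higher and 1933 lower with all arrays) also moved by more than 1.5 times in fits that left out 1 array. The cause was not tested. With 2 arrays a group, single arrays decided the calls named with the genes, and values near the background guide, such as those of Cxcl5, bound a level only.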
